A study of Mus musculus with 12 samples.

Results

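Mitochondria make most of a resting cell's ATP by passing electrons along the respiratory chain. Complex I takes electrons from NADH and complex II, succinate dehydrogenase, takes them from succinate. Complex III hands them on to cytochrome c, and complex IV gives them to oxygen. Most subunits are encoded in the nucleus and imported, the complexes are built from many subunits in fixed proportion, and alveolar type 2 cells and heart muscle are rich in mitochondria. The 40 genes described here encode nuclear subunits of this chain. They were found by symbol through the RefSeq transcript listed for each array probe, and no measured value entered that rule. They are 22 genes of complex I, 4 of complex II, 5 of complex III, 8 of complex IV and Cycs, the gene of cytochrome c, out of 17005 named genes on the array. The 40 genes were read by 47 probes (34 genes by 1 probe and 6 by several, of which the brightest was used), and all 40 lay well above background on all 12 arrays.

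RNA was taken from the lungs of FVB/N mice (strain label FVB/NJ), described as female and 7 weeks old at the start, and read on Agilent arrays in 1 colour with 3 arrays in each of 4 groups. PBS mice received PBS, the vehicle, weekly for 16 weeks. LPS mice received bacterial endotoxin through the nose, 5 ug a mouse, weekly for 16 weeks. NNK mice received a nitrosamine carcinogen of tobacco in the first 4 weeks, by injection into the peritoneum of 3 mg a mouse, which the labels call biweekly in one place and semi-weekly in another, and no sham instillation is named for them. LPS/NNK mice received both agents. Lungs were taken 1 week after the last treatment, and whether the mice given NNK alone were as old at death as the others is not given in the sources used here. Arrays carry the numbers of the labels, which are 2, 3 and 6 for LPS/NNK, 2, 3 and 5 for NNK, 1, 5 and 6 for LPS, and 1, 2 and 3 for PBS. No source ties an array to a named animal, so p-values measure the spread between these samples. A level below is log2 of the spot's processed signal minus the 75th percentile of its array, and a change is a difference of mean levels. A change is given ± its standard error with limma's p adjusted by Benjamini-Hochberg over the 21853 items tested, and a gene is said to have risen or fallen where that p is under 0.05. Whole lung was read, so a change in the share of a cell type and a change in RNA per cell cannot be told apart.

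The promoters of these genes are shown because members of 1 complex moved apart in the lungs, as described below. RefSeq start sites of build GRCm38.p6 gave the 250 bases before the start for 31 of the 40 genes. The palindrome bound by NRF1, a factor known to drive respiratory genes, was searched on both strands as GCGCA and GCGC with any 1 base between them. It lay in 4 of the 31 windows (12.9%), against 4.23% of windows of all 27025 genes. Its genes were Sdha, Sdhd, Ndufa8 and Ndufa5, whose windows follow 5′ to 3′ on the gene's strand with matches to NRF1 and GABPA motifs in capitals. Sdha, which holds 3 matches, and Sdhd encode subunits of complex II, and Ndufa8 and Ndufa5 subunits of complex I.
Sdha, chr13:74350241-74350490, minus strand: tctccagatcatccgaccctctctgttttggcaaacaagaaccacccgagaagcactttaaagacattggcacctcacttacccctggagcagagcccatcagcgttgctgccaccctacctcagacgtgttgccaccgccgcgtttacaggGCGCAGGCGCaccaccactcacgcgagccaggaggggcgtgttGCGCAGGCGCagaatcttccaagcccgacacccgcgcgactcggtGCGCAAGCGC
Sdhd, chr9:50603850-50604099, minus strand: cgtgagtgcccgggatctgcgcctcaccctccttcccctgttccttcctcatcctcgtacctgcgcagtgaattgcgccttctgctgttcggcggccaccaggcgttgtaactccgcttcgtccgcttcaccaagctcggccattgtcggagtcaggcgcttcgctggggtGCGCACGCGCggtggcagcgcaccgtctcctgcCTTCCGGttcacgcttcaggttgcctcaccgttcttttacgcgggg
Ndufa8, chr2:36049339-36049588, minus strand: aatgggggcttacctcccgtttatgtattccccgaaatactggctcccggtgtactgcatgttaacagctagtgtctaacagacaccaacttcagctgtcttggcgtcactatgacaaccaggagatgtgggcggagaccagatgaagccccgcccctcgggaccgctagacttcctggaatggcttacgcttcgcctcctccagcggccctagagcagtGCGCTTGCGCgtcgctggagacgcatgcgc
Ndufa5, chr6:24527691-24527940, minus strand: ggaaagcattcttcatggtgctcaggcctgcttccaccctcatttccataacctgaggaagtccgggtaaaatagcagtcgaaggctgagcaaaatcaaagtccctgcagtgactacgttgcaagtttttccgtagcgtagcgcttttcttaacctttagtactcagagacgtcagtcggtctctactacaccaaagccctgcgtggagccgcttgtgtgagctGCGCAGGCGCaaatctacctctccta
These 4 genes did not share a direction: against PBS, LPS/NNK lungs had more Ndufa8, less Sdha and Ndufa5, and no called difference in Sdhd. The site of GABPA, searched as CCGGAAG on both strands, lay in 3 of the 31 windows (9.68%; Sdhd, Ndufb7 and Ndufs3) against 7.83% of all windows. The site of YY1, AAGATGGC, lay in 0 of the 31 and in 1.83% of all windows. A match is a description of the letters and was not tied to binding in these lungs.

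The arrays differed in ways that bear on these genes. The 75th percentile of signal was 699 to 984 on the PBS arrays and 183 to 510 on the 9 treated arrays, and 70.2% to 73.1% of spots lay above background on PBS arrays against 55.6% to 67.5% on treated arrays. The added control RNAs ran the other way, with a median log2 signal of 9.05 to 10.1 on PBS arrays and 10.5 to 11.4 on treated arrays. PBS 1 and PBS 2 expressed the Y-linked genes Ddx3y, Eif2s3y, Kdm5d and Uty and lacked Xist, against the label female, while the other 10 arrays had Xist and not those genes. Slide 5 held PBS 3 and NNK 2, and slide 8 held PBS 1 and LPS/NNK 6. No LPS array shared a slide with another group. PBS 2 was the only array of slide 1 and was scanned on an earlier day than all other arrays. The part of signal strength, sex, slide and scan day in the results was not tested beyond the values given beside them.

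Respiratory genes are bright, and bright genes as a whole stood higher in treated lungs under this scaling. Counts of members are therefore set beside those of 3110 other genes of like signal (mean level 2.01 to 5.40), and beside the split under other scalings. Against PBS, LPS lungs had 15 of the 40 genes higher and 5 lower. Over all items 56% were called, 26.1% higher and 30% lower, and of the genes of like signal 48.0% were higher and 9.68% lower. In NNK lungs 14 were higher and 4 lower, against 27.8% and 23.7% of all items (51.5% called either way) and 48.5% and 7.81% of genes of like signal. In LPS/NNK lungs 17 were higher and 6 lower, against 27.9% and 27.1% of all items (55.1% either way) and 50.6% and 6.72% of genes of like signal. Of the genes called lower in LPS/NNK lungs, Ndufv2 (mean level 1.27), Sdha (1.10) and Ndufb5 (0.58) lie below that range of signal. Of all named genes near their levels, in classes 6 and 7 of 10 by level, 18.8% and 15.1% were lower for LPS/NNK. For LPS these were 20.9% and 17.8%. Cox4i1, Cox8a, Ndufb10 and Cox5a lie above the range. These shares are a description with no test.

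Over the 40 genes the median change was 0.34 (LPS), 0.59 (NNK) and 0.65 (LPS/NNK). The genes of like signal had medians of 0.64, 0.68 and 0.72, and all items −0.06, 0.04 and −0.04. Treated and PBS arrays were fully apart for 26, 32 and 24 of the 40 genes, where 62.5%, 67.6% and 62% of all items were apart. The 3 comparisons share the PBS arrays and are not independent of each other. In them 13 genes were higher each time (Cox4i1, Cox5b, Cox8a, Cyc1, Ndufa10, Ndufa3, Ndufa8, Ndufb2, Ndufb8, Ndufs7, Ndufv1, Uqcrc1 and Uqcrq), 2 were lower each time (Ndufs1 and Ndufv2), and 14 were not called in any. No share of all items called each time stands beside these counts, so they are not read as particular to these genes. In the single comparisons 48.0%, 48.5% and 50.6% of genes of like signal were higher.

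**Figure D1:**
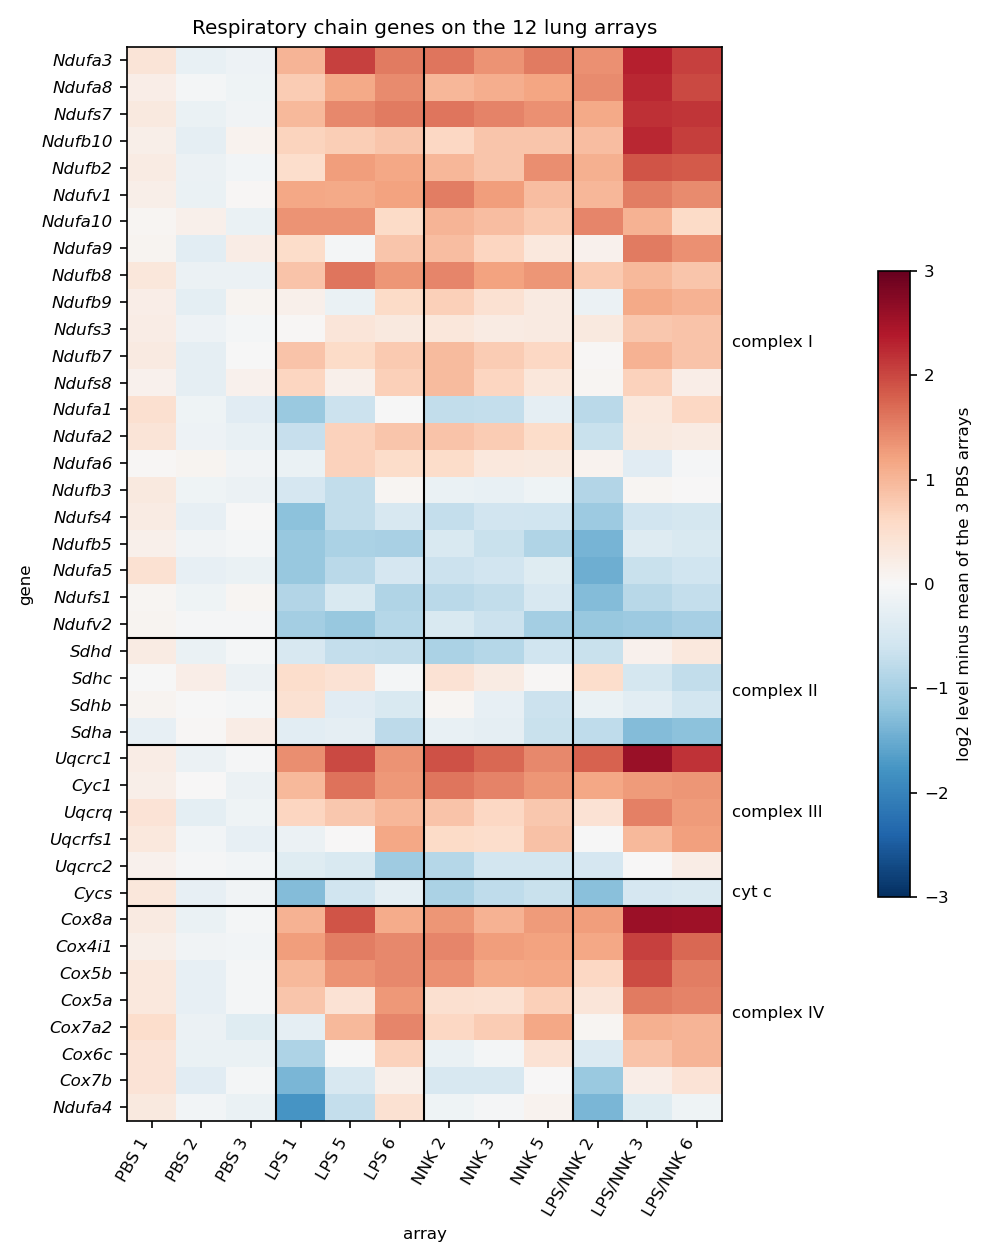
Level of each of the 40 genes on each of the 12 arrays, shown as log2 level minus the mean of the 3 PBS arrays, with genes in rows grouped by complex and arrays in columns grouped by treatment. Complex I holds genes above PBS on all 9 treated arrays, such as Ndufv1, and genes below PBS on all of them, such as Ndufv2.

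The split between higher and lower genes turned with the scaling. For LPS against PBS the 40 genes gave 9 higher and 13 lower after quantile normalization, 4 and 14 after cyclic loess, 20 and 1 with each array's median as its zero, and 10 and 13 when centred on the genes of like signal. The same settings gave 9 and 11, 4 and 10, 17 and 0, and 9 and 12 for NNK. They gave 8 and 14, 6 and 14, 21 and 3, and 11 and 13 for LPS/NNK. Of all items the same settings called 5687 and 6699, 5602 and 6613, 8174 and 4330, and 3025 and 9583 for LPS. For NNK these were 5673 and 5719, 5238 and 5845, 7400 and 3916, and 3140 and 8771. For LPS/NNK they were 5739 and 6382, 5619 and 6283, 7785 and 4261, and 3172 and 10341. Normexp background correction with the 75th percentile gave 8 and 2 of the 40 genes for LPS, 2 and 8 for NNK, and 11 and 4 for LPS/NNK. It called 2801 and 1546, 6872 and 1464, and 5175 and 1338 of all items. With quantile normalization after normexp the splits were 11 and 14, 11 and 10, and 11 and 15. For all items they were 5082 and 6000, 5054 and 5262, and 5215 and 5831. The median of all items moved to 0.34, 0.24 and 0.26 with the array median as zero and to −0.55, −0.46 and −0.69 with centring on genes of like signal. A shift of the whole chain in 1 direction therefore has no settled sign here, while a difference between subunits on the same array does not depend on a zero shared by all genes.

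**Figure D2:**
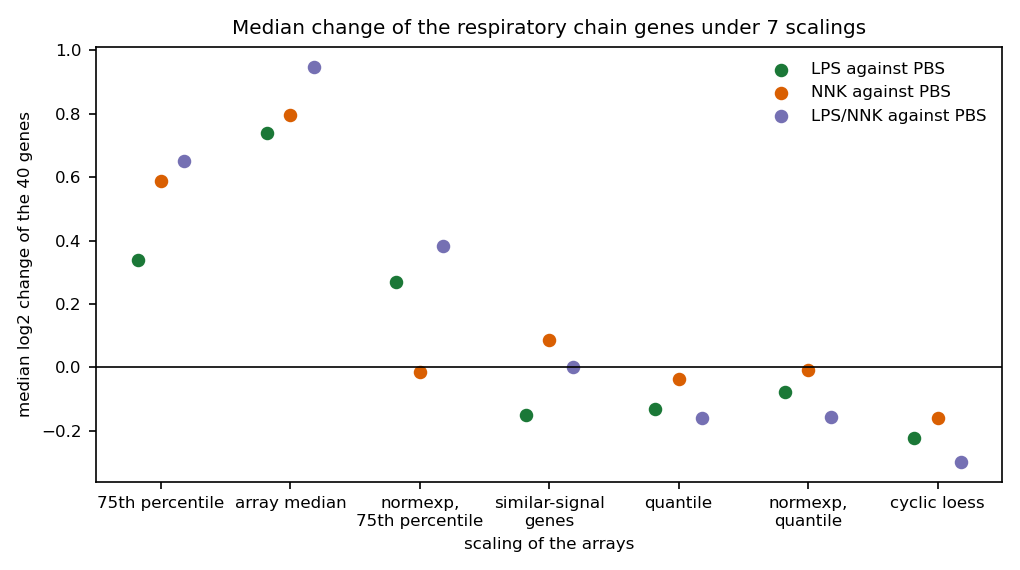
Median log2 change of the 40 genes against PBS under 7 scalings with 1 point each for LPS, NNK and LPS/NNK. For LPS/NNK the median of the 40 genes runs from −0.30 after cyclic loess to 0.95 with the array median as zero.

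Some genes kept call and direction in all 7 scalings. Against PBS these were Ndufa3, Ndufs7, Uqcrc1 and Cyc1, higher, and Ndufv2, lower, in LPS lungs, and Uqcrc1 and Cyc1, higher, in NNK lungs. In LPS/NNK lungs they were Ndufa3, Ndufa8, Ndufb2, Ndufs7, Uqcrc1 and Cox8a, higher, and Ndufs1, Ndufv2 and Sdha, lower. Without PBS 1 and PBS 2, the arrays that went against the label female, the 40 genes gave 9 higher and 0 lower for LPS, 7 and 0 for NNK, and 11 and 2 for LPS/NNK, with PBS 3 alone as the control and assumed to vary like the other groups.

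Named genes were also put in 10 classes of equal size by mean level. The brightest class held 23 of the 40, and these moved much like their neighbours. For LPS/NNK against PBS their median change was 1.08, with 14 higher and 0 lower, against 1.02 for all genes of the class, of which 62.5% were higher and 3.08% lower. The next class held 10 members, with a median of −0.22, 2 higher and 3 lower, against 0.66 for all, 48.8% higher and 6.89% lower. For LPS the 10 had a median of −0.61 against 0.61, and for NNK −0.42 against 0.63.

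**Figure D3:**
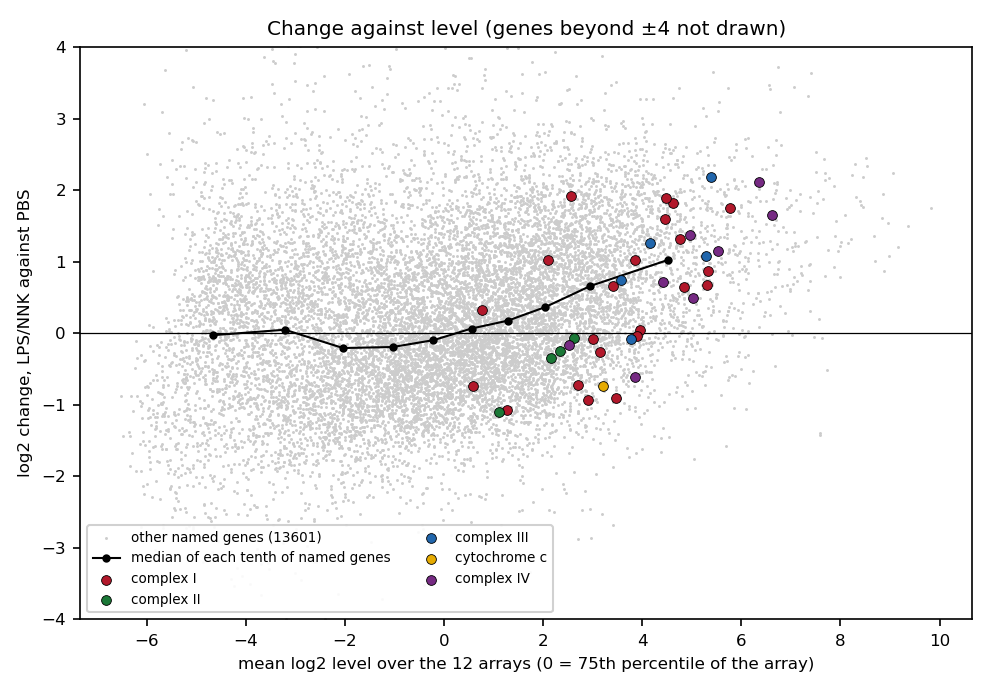
Log2 change of LPS/NNK against PBS (vertical axis) by mean level over the 12 arrays (horizontal axis) for named genes tested, in grey, with the 40 respiratory genes coloured by complex and the median of each of the 10 classes as a black line. From the middle of the range the line rises with level, to 1.02 in the brightest class, and the 40 genes spread above and below it.

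Complex I is an L-shaped enzyme with an arm in the matrix that oxidises NADH and an arm in the membrane that pumps protons. Of its 22 measured genes, 8 were higher and 5 lower in LPS lungs, 8 and 2 in NNK lungs, and 10 and 5 in LPS/NNK lungs. Over all items 56%, 51.5% and 55.1% were called either way. Among genes of like signal 48.0%, 48.5% and 50.6% were higher and 9.68%, 7.81% and 6.72% lower. Ndufv2, Ndufb5 and Ndufs8 had less signal than the range of those genes, and Ndufb10 had more. The median change of complex I was 0.40, 0.64 and 0.65. Those medians became −0.13, 0.05 and −0.13 after quantile normalization, with 5 higher and 7 lower, 5 and 7, and 5 and 8.

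The module at the tip of the matrix arm, where NADH is oxidised, held genes that went opposite ways. Ndufv1 encodes the subunit that binds NADH and flavin. Its levels were 4.00, 3.63 and 3.87 on PBS arrays, 5.00, 4.97 and 5.04 on LPS arrays, 5.37, 5.08 and 4.77 on NNK arrays and 4.83, 5.38 and 5.24 on LPS/NNK arrays. All 9 treated arrays lay above all PBS arrays, and the treated groups overlapped each other. Ndufv1 rose by 1.17 ± 0.24 (adjusted p = 0.0013) with LPS, by 1.24 ± 0.24 (adjusted p = 0.0012) with NNK and by 1.32 ± 0.24 (adjusted p = 0.00052) with both. Ndufv2, which carries an iron-sulfur cluster and pairs with Ndufv1, had levels of 2.05, 1.94 and 1.92 in PBS, 0.96, 0.84 and 1.11 in LPS, 1.51, 1.32 and 0.94 in NNK and 0.83, 0.87 and 0.97 in LPS/NNK. Every treated array lay below every PBS array, and the PBS arrays lay close together. Its change was −1.0 ± 0.22 (adjusted p = 0.002) with LPS, −0.72 ± 0.22 (adjusted p = 0.015) with NNK and −1.08 ± 0.22 (adjusted p = 0.0011) with both, and it fell in each. The call for NNK was lost without PBS 1 or without NNK 5.

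Ndufs1, the large iron-sulfur subunit of the same module, had levels of 3.56, 3.37 and 3.54 in PBS, 2.60, 3.02 and 2.59 in LPS, 2.68, 2.76 and 3.00 in NNK and 2.20, 2.67 and 2.78 in LPS/NNK. The PBS arrays were the 3 highest of the 12. Its change was −0.75 ± 0.24 (adjusted p = 0.016) with LPS, −0.68 ± 0.24 (adjusted p = 0.029) with NNK and −0.94 ± 0.24 (adjusted p = 0.0044) with both. The NNK call was lost without PBS 1, PBS 3, NNK 2 or NNK 3. Ndufs4, an accessory subunit that helps hold this module on the arm, changed by −0.82 (adjusted p = 0.017) with LPS and −0.73 (adjusted p = 0.029) with both, and by −0.63 with NNK, where it was not called. Its call was lost without PBS 1 or LPS 1 for LPS, and without PBS 1, PBS 3 or LPS/NNK 2 for both agents. Ndufa2, also of this module, was not called in any comparison, with changes of 0.28, 0.73 and −0.04.

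The stretch of the arm that passes electrons to ubiquinone included Ndufs7, which carries the last iron-sulfur cluster. Its levels were 3.75, 3.27 and 3.36 in PBS, 4.42, 4.91 and 5.02 in LPS, 5.07, 4.94 and 4.83 in NNK and 4.58, 5.64 and 5.59 in LPS/NNK. No treated array came down to the PBS arrays. It rose by 1.33 ± 0.30 (adjusted p = 0.0024) with LPS, 1.49 ± 0.30 (adjusted p = 0.0016) with NNK and 1.81 ± 0.30 (adjusted p = 0.00026) with both. Ndufa5, an accessory subunit of the same stretch, had levels of 4.49, 3.78 and 3.82 in PBS, 2.88, 3.21 and 3.52 in LPS, 3.39, 3.46 and 3.66 in NNK and 2.57, 3.37 and 3.44 in LPS/NNK. PBS 1 was the highest array and LPS/NNK 2 the lowest, and PBS 2 lay a little above NNK 5. Its change was −0.82 ± 0.29 (adjusted p = 0.029) with LPS and −0.90 ± 0.29 (adjusted p = 0.019) with both, where it fell, and −0.53 ± 0.29 (adjusted p = 0.15) with NNK, where it was not called. The LPS call was lost without PBS 1, LPS 1 or LPS 5, and the LPS/NNK call without PBS 1 or LPS/NNK 2. Ndufs3, a core subunit, was called higher in LPS/NNK lungs, at 0.66 (adjusted p = 0.027), and turned to −0.02, −0.03 and −0.01 after quantile normalization, cyclic loess and quantile normalization with normexp. Its call was lost without PBS 2, PBS 3, LPS/NNK 3 or LPS/NNK 6. Ndufa9 was called in LPS/NNK lungs too, at 1.02 (adjusted p = 0.030), and not without PBS 1, PBS 2, LPS/NNK 3 or LPS/NNK 6. Ndufs8, which carries a pair of iron-sulfur clusters, and Ndufa6 were not called, with changes of 0.32 and −0.09 in LPS/NNK lungs.

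Of the genes of the inner membrane arm, Ndufa3, Ndufa8 and Ndufa10 were higher in each treated group and Ndufa1 in none. Ndufa3, an accessory subunit, had levels of 1.71, 1.10 and 1.16 in PBS, 2.33, 3.36 and 2.88 in LPS, 2.91, 2.66 and 2.88 in NNK and 2.69, 3.66 and 3.37 in LPS/NNK. It rose by 1.54 ± 0.32 (adjusted p = 0.0014) with LPS, 1.5 ± 0.32 (adjusted p = 0.0021) with NNK and 1.92 ± 0.32 (adjusted p = 0.00027) with both, and PBS arrays did not reach any treated array. Ndufa8, a small subunit on the outer face of that arm, had levels of 3.66, 3.42 and 3.33 in PBS, 4.24, 4.61 and 4.89 in LPS, 4.46, 4.57 and 4.65 in NNK and 4.89, 5.73 and 5.45 in LPS/NNK. LPS/NNK 3 and LPS/NNK 6 stood above every other array, and LPS/NNK 2 was level with LPS 6. Ndufa8 rose by 1.11 ± 0.26 (adjusted p = 0.0032) with LPS, 1.09 ± 0.26 (adjusted p = 0.0043) with NNK and 1.89 ± 0.26 (adjusted p = 7.8e-05) with both. Ndufa10 rose by 1.09, 0.91 and 1.03 (adjusted p = 0.0057, 0.017 and 0.0078), and lost the NNK call without PBS 3 or without NNK 2. Ndufa1 had changes of −0.59, −0.57 and 0.05, and its other probe had −0.55, −0.68 and −0.27.

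The outer membrane arm is built from the Ndufb subunits, and these too went both ways. Ndufb8 had levels of 4.80, 4.29 and 4.28 in PBS, 5.30, 6.07 and 5.79 in LPS, 5.91, 5.66 and 5.78 in NNK and 5.24, 5.43 and 5.29 in LPS/NNK. The LPS/NNK arrays lay between the PBS arrays and most of those given 1 agent. It rose by 1.26 ± 0.25 (adjusted p = 0.0011) with LPS and 1.33 ± 0.25 (adjusted p = 0.001) with NNK, and by 0.86 ± 0.25 (adjusted p = 0.01) with both, a change that turned to −0.03, −0.24 and −0.03 after quantile normalization, cyclic loess and quantile normalization with normexp. Ndufb10 had levels of 5.13, 4.69 and 5.05 in PBS, 5.61, 5.70 and 5.78 in LPS, 5.57, 5.78 and 5.79 in NNK and 5.88, 7.23 and 7.03 in LPS/NNK. LPS/NNK 3 and 6 stood far above LPS/NNK 2, which lay just above the groups given 1 agent. It rose by 1.75 ± 0.31 (adjusted p = 0.00043) with both agents and was not called with LPS (0.74 ± 0.31, adjusted p = 0.056) or NNK (0.76 ± 0.31, adjusted p = 0.055). Ndufb5 had levels of 1.36, 1.10 and 1.13 in PBS, 0.05, 0.24 and 0.22 in LPS, 0.74, 0.53 and 0.29 in NNK and −0.19, 0.82 and 0.74 in LPS/NNK. All treated arrays were below the PBS arrays. Its change was −1.02 ± 0.27 (adjusted p = 0.0067) with LPS and −0.74 ± 0.27 (adjusted p = 0.035) with both, where it fell, and −0.68 ± 0.27 (adjusted p = 0.053) with NNK. The LPS/NNK call was lost without PBS 1, PBS 2, PBS 3 or LPS/NNK 2. Ndufb2 rose by 0.98, 1.08 and 1.59 (adjusted p = 0.013, 0.009 and 0.00062), and lost the LPS call without LPS 5. Ndufb7 was called higher with LPS (0.74) and NNK (0.77) but had −0.08 and −0.06 after cyclic loess. It lost the LPS call on leaving out any of 6 arrays (PBS 2 or 3, LPS 1, 5 or 6, or NNK 3) and the NNK call without PBS 2, PBS 3, NNK 2 or NNK 3. Ndufb3 had changes of −0.40, −0.18 and −0.27 and Ndufb9 0.17, 0.48 and 0.67, none called.

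Complex II has 4 subunits, all nuclear, and takes part in the tricarboxylic acid cycle as well as the chain. None was higher in any treated group. The 4 genes lay in classes 7 to 9 of the 10 classes by level. For LPS/NNK 32.4%, 39.2% and 48.8% of all genes in these classes were higher, and 15.1%, 12.0% and 6.89% lower. The median change of complex II was −0.29 with LPS, −0.33 with NNK and −0.30 with both. After quantile normalization it was −0.62, −0.67 and −0.74, with 0 higher and 2, 2 and 3 lower. With each array's median as zero the LPS median was 0.11. Sdha, the flavoprotein that oxidises succinate, had levels of 1.33, 1.62 and 1.81 in PBS, 1.26, 1.31 and 0.81 in LPS, 1.37, 1.32 and 0.93 in NNK and 0.82, 0.28 and 0.35 in LPS/NNK. The LPS/NNK arrays were 3 of the 4 lowest, with LPS 6 beside LPS/NNK 2, and PBS 1 lay within the arrays given 1 agent. It fell with both agents by a change of −1.11 ± 0.25 (adjusted p = 0.0025) and was not called with LPS (−0.46 ± 0.25, adjusted p = 0.14) or NNK (−0.38 ± 0.25, adjusted p = 0.22). Its other probe, dimmer, gave −1.15, −1.33 and −1.29 for LPS, NNK and LPS/NNK, so the probes disagreed on the size with 1 agent.

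Sdhd, a membrane anchor of complex II, had levels of 3.27, 2.80 and 2.96 in PBS, 2.54, 2.30 and 2.26 in LPS, 2.05, 2.15 and 2.41 in NNK and 2.34, 3.15 and 3.34 in LPS/NNK. LPS and NNK arrays all lay below PBS arrays, while LPS/NNK 3 lay among the PBS arrays, LPS/NNK 6 just above them and LPS/NNK 2 below them. It fell with NNK by a change of −0.80 ± 0.27 (adjusted p = 0.026), a call lost without PBS 1, PBS 3, NNK 2 or NNK 3. It was not called with LPS (−0.64 ± 0.27, adjusted p = 0.061) or with both (−0.07 ± 0.27, adjusted p = 0.85). Sdhb, the iron-sulfur subunit, had changes of −0.11, −0.27 and −0.35, and Sdhc, the other anchor, 0.29, 0.24 and −0.25, none of them called.

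**Figure D4:**
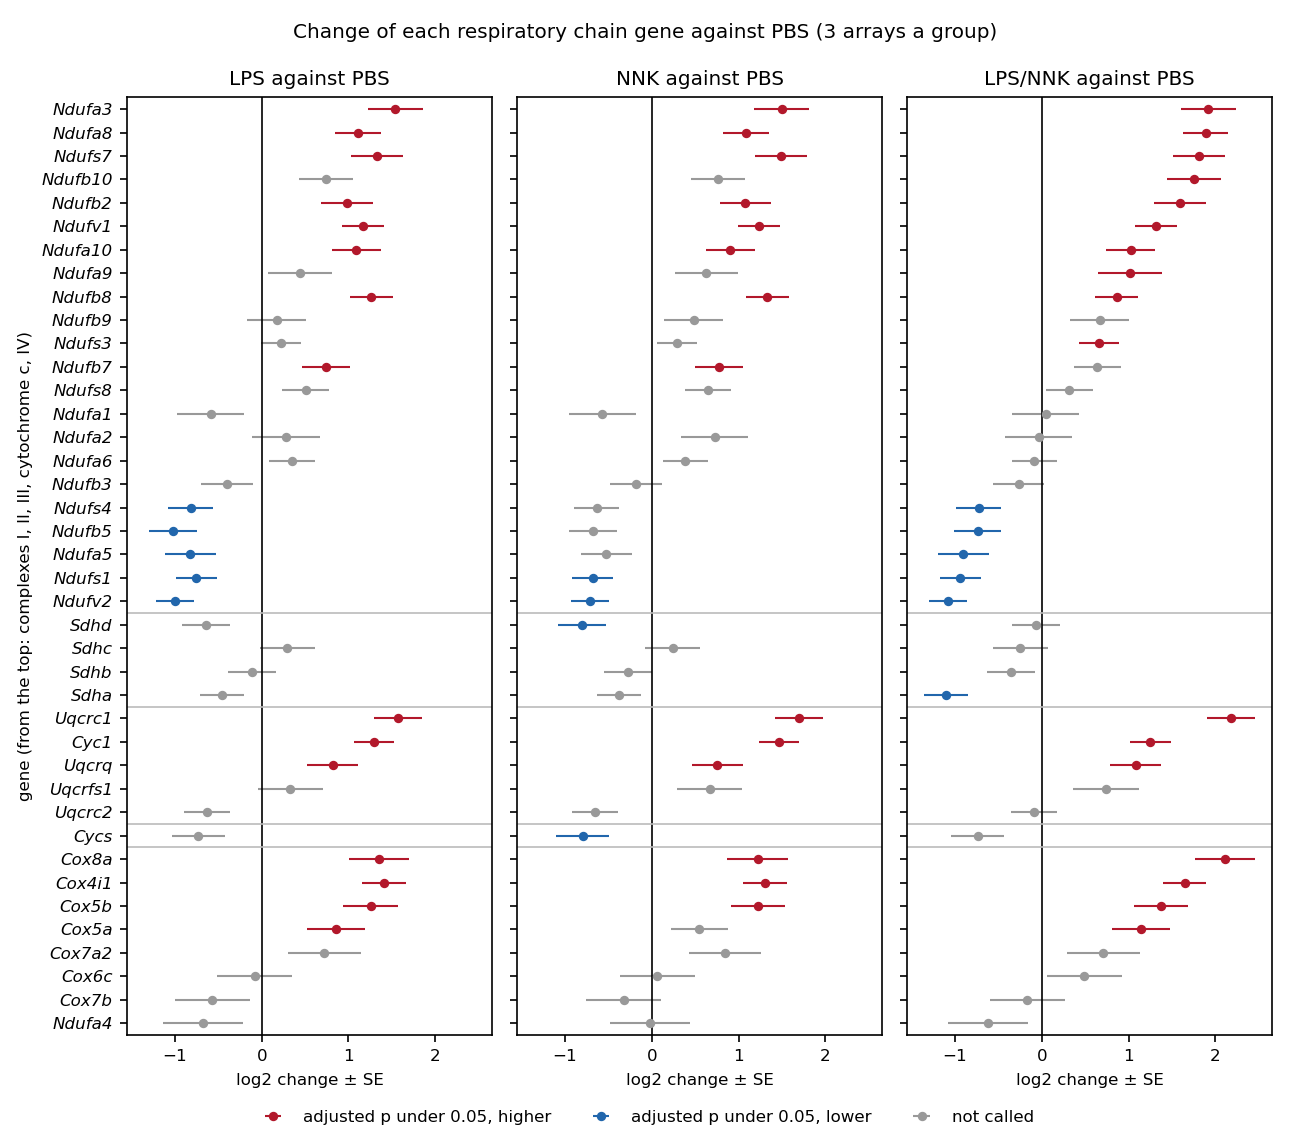
Log2 change of each of the 40 genes against PBS with its standard error, for LPS, NNK and LPS/NNK, with genes ordered by complex and genes called higher in red, called lower in blue and not called in grey. Complex II shows no gene called higher, and complexes III and IV show none called lower, under the main scaling. Complexes III and IV lie mostly in the brightest class, where few genes of any kind were lower. Complex II lies in dimmer classes, where a smaller share of all genes was higher.

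Complex III passes electrons from ubiquinol to cytochrome c. Of its 5 measured genes 3 (Uqcrc1, Cyc1 and Uqcrq) were higher in each treated group and 0 were lower, while after quantile normalization 2, 2 and 1 were higher and 1 lower each time. All 5 lay in the brightest class, where 56.3%, 55.9% and 62.5% of genes were higher and 4.03%, 2.79% and 3.08% lower. Uqcrc1 and Uqcrc2 encode the pair of large core proteins on the matrix side of complex III. Uqcrc1 had levels of 4.24, 3.84 and 3.99 in PBS, 5.42, 6.0 and 5.37 in LPS, 5.94, 5.75 and 5.47 in NNK and 5.79, 6.62 and 6.20 in LPS/NNK. Every treated array stood over a unit above every PBS array. It rose by 1.57 ± 0.27 (adjusted p = 0.00048) with LPS, 1.69 ± 0.27 (adjusted p = 0.00048) with NNK and 2.18 ± 0.27 (adjusted p = 4.1e-05) with both. Its other probe, dimmer, gave 1.71, 1.77 and 1.65. Uqcrc2 had levels of 4.25, 4.07 and 4.02 in PBS, 3.74, 3.66 and 3.04 in LPS, 3.25, 3.56 and 3.57 in NNK and 3.61, 4.12 and 4.35 in LPS/NNK. LPS and NNK arrays lay below PBS arrays, and LPS/NNK arrays spanned the PBS range. Its changes were −0.63 ± 0.26 (adjusted p = 0.055) with LPS, −0.66 ± 0.26 (adjusted p = 0.052) with NNK and −0.09 ± 0.26 (adjusted p = 0.79) with both, and none was called.

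Cyc1 encodes cytochrome c1, which docks cytochrome c on complex III. Its levels were 3.34, 3.16 and 2.98 in PBS, 4.12, 4.79 and 4.46 in LPS, 4.75, 4.64 and 4.48 in NNK and 4.32, 4.44 and 4.48 in LPS/NNK. All treated arrays stood above PBS, the LPS arrays overlapped both other treated groups, and the highest LPS/NNK array lay just below the lowest NNK array. It rose by 1.30 ± 0.23 (adjusted p = 0.00052) with LPS, 1.47 ± 0.23 (adjusted p = 0.00041) with NNK and 1.25 ± 0.23 (adjusted p = 0.00057) with both. Cycs, cytochrome c itself, which shuttles between complexes III and IV, had levels of 4.13, 3.54 and 3.67 in PBS, 2.49, 3.18 and 3.48 in LPS, 2.83, 3.02 and 3.1 in NNK and 2.52, 3.28 and 3.33 in LPS/NNK. All treated arrays lay below all PBS arrays, LPS 6 by the least. It fell with NNK by a change of −0.79 ± 0.31 (adjusted p = 0.044), a call lost on leaving out any of 7 arrays (PBS 1, 2 or 3, LPS 5, or NNK 2, 3 or 5). It was not called with LPS (−0.73 ± 0.31, adjusted p = 0.056) or both (−0.74 ± 0.31, adjusted p = 0.055), though after quantile normalization it was called lower in all 3, at −1.32, −1.37 and −1.45. Cycs has a further pair of probes, both dimmer, with changes of −1.28, −1.17 and −0.72 and of −1.20, −1.36 and −1.01 for LPS, NNK and LPS/NNK, so the probes disagreed on the size. Uqcrq, a small subunit, was called higher at 0.82, 0.76 and 1.08 but had −0.08, −0.15 and −0.02 after cyclic loess. Its LPS call was lost without PBS 2, PBS 3, LPS 5 or LPS 6, and its NNK call on leaving out any of 6 arrays (PBS 2 or 3, LPS 5, or NNK 2, 3 or 5). Uqcrfs1, the Rieske iron-sulfur protein, had 0.33, 0.67 and 0.74 and was not called.

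Complex IV reduces oxygen to water. Of its 8 measured nuclear genes 4, 3 and 4 were higher in LPS, NNK and LPS/NNK lungs and 0 were lower, with medians of 0.79, 0.70 and 0.93. Most of the 8 lay in the brightest class, where 56.3%, 55.9% and 62.5% of genes were higher and 4.03%, 2.79% and 3.08% lower. After quantile normalization 2 of the 8 were higher each time and 2, 0 and 1 lower. After cyclic loess 0, 0 and 1 were higher and 3, 0 and 1 lower. Cox4i1, the largest nuclear subunit, had levels of 5.70, 5.43 and 5.45 in PBS, 6.77, 7.06 and 6.98 in LPS, 6.99, 6.77 and 6.74 in NNK and 6.68, 7.58 and 7.25 in LPS/NNK. The lowest treated array stood well above the highest PBS array. It rose by 1.41 ± 0.25 (adjusted p = 0.00053) with LPS, 1.31 ± 0.25 (adjusted p = 0.0012) with NNK and 1.64 ± 0.25 (adjusted p = 0.00015) with both. Cox8a, a small membrane subunit, had levels of 5.46, 4.97 and 5.12 in PBS, 6.24, 7.07 and 6.30 in LPS, 6.51, 6.23 and 6.46 in NNK and 6.43, 7.74 and 7.72 in LPS/NNK. LPS/NNK 3 and 6 were the highest arrays, and LPS/NNK 2 lay among the NNK arrays. It rose by 1.35 ± 0.35 (adjusted p = 0.0054) with LPS, 1.22 ± 0.35 (adjusted p = 0.011) with NNK and 2.11 ± 0.35 (adjusted p = 0.00027) with both. Cox5b, which binds zinc, rose by 1.25, 1.22 and 1.37 (adjusted p = 0.0044, 0.0060 and 0.0024).

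Cox5a, a matrix-side subunit, was called with LPS (0.86) and with both (1.14), turned to −0.09 and −0.01 after cyclic loess, and lost the LPS call on leaving out any of 7 arrays (PBS 2 or 3, LPS 1 or 6, or NNK 2, 3 or 5) and the LPS/NNK call without LPS/NNK 3. The other 4 genes of complex IV were not called. Cox6c had changes of −0.08, 0.06 and 0.49, Cox7a2 0.72, 0.84 and 0.71, and Cox7b −0.57, −0.32 and −0.17. Ndufa4, a complex IV subunit once assigned to complex I, had −0.68, −0.02 and −0.62.

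Subunits of the same complex were also compared within each array, where the scaling of the array cancels. The 4 pairs below were chosen after the values were seen, so their values are a description with no test. Relative to the PBS mean, the log2 ratio of Ndufv1 to Ndufv2 was 0.09, −0.17 and 0.08 on the PBS arrays. It was 2.18, 2.26 and 2.06 on LPS arrays, 2.0, 1.90 and 1.96 on NNK arrays, and 2.13, 2.64 and 2.41 on LPS/NNK arrays. The treated arrays stood close together and far above PBS. The ratio of Uqcrc1 to Uqcrc2 had a mean of 2.21 ± 0.38 (SD, n = 3) in LPS, 2.35 ± 0.40 in NNK and 2.27 ± 0.33 in LPS/NNK lungs, with an SD of 0.12 in PBS. The ratio of Cyc1 to Cycs, partners in electron transfer, was 2.03 ± 0.37, 2.26 ± 0.27 and 1.99 ± 0.37, with an SD of 0.22 in PBS. The ratio of Ndufs7 to Ndufs1 was 2.08 ± 0.34, 2.17 ± 0.28 and 2.76 ± 0.30, with an SD of 0.20 in PBS. No treated array overlapped a PBS array in any of the 4 ratios. Each pair set the brighter gene over the dimmer, with mean levels of 4.77 over 1.27, 5.38 over 3.77, 4.16 over 3.21 and 4.61 over 2.90. The median LPS/NNK change of named genes was 0.17 in class 7 of the 10 classes by level and 1.02 in the brightest. The part of level in these ratios was not tested. A ratio shows unequal change of its genes and not which of them moved, and a signal-dependent shift between arrays does not cancel in it.

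**Figure D5:**
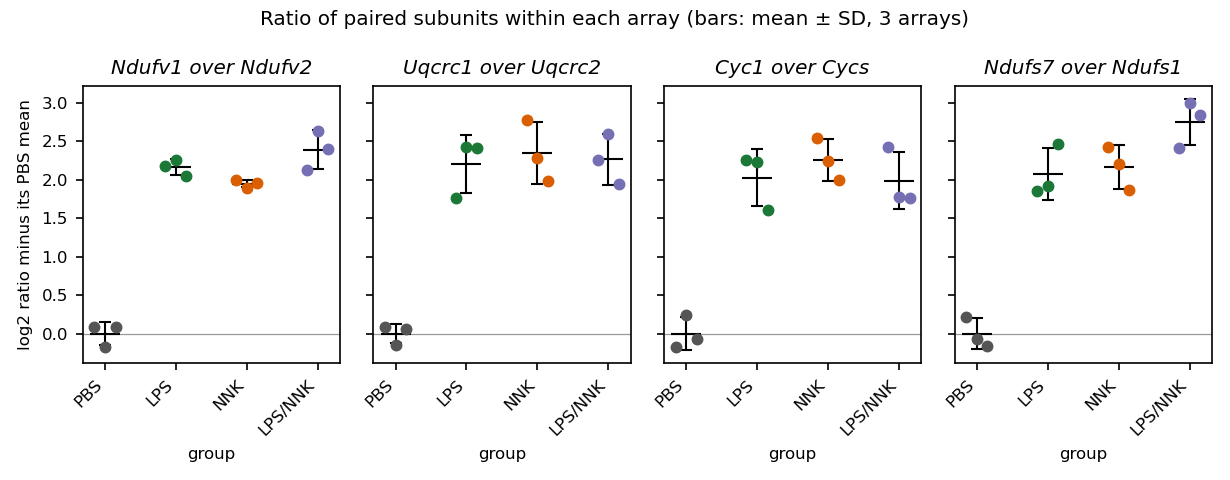
Log2 ratio of 4 pairs of subunits on each array, relative to the PBS mean, with 1 point per array and bars for the mean ± SD of the 3 arrays of a group. The 9 treated arrays lie at 1.61 or above in each pair, and the 3 PBS arrays lie at 0.24 or below. In each pair the brighter gene is set over the dimmer.

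Whether endotoxin added to the carcinogen was asked by LPS/NNK against NNK. Of the 40 genes 1, Ndufb10, was higher and 0 were lower, where 17.3% of all items were called, 7.92% higher and 9.35% lower. Among genes of like signal 10.4% were higher and 5.88% lower. The Ndufb10 difference was 1.0 ± 0.31 (adjusted p = 0.042), and it kept its call in 3 of the 12 fits that each left out 1 array. The median over the 40 genes was 0.10, against 0.15 for genes of like signal and −0.06 for all items, and the groups were apart for 8 of the 40 (35.9% of all items). At an unadjusted p under 0.05, 4 of the 40 were higher and 1 lower. The genes of smallest p in the other complexes were Sdha at −0.72 ± 0.25 (adjusted p = 0.065), Uqcrc2 at 0.57 ± 0.26 (adjusted p = 0.15) and Cox8a at 0.89 ± 0.35 (adjusted p = 0.093), and Cycs had 0.06 ± 0.31 (adjusted p = 0.92). None of these was called, and the dimmer probe of Sdha gave 0.05. Quantile normalization called 0 of the 40, and cyclic loess called 2 higher. Of all items quantile normalization called 1711 higher and 1899 lower, and cyclic loess 1975 and 1945.

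The comparison of LPS/NNK with LPS asked what the carcinogen added to endotoxin. It called 0 of the 40 genes with limma at an adjusted p under 0.05, where 4.11% of all items were called, 2.85% higher and 1.26% lower. Among genes of like signal 0.932% were higher and 0.997% lower. At an unadjusted p under 0.05, 4 of the 40 were higher and 1 was lower, and the groups were apart for 2 genes (20.9% of all items). The median was 0.19 over the 40 genes, 0.20 over genes of like signal and 0.11 over all items. The smallest p-values belonged to Ndufb10 at 1.01 ± 0.31 (adjusted p = 0.076), Ndufa8 at 0.78 ± 0.26 (adjusted p = 0.095) and Sdha at −0.64 ± 0.25 (adjusted p = 0.14), where the dimmer probe of Sdha gave −0.14. Uqcrc1 had 0.61 ± 0.27 (adjusted p = 0.19), its dimmer probe −0.06, and Cox8a 0.76 ± 0.35 (adjusted p = 0.19).

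Array LPS/NNK 2 stood apart from its group. The median level of the 40 genes, relative to each gene's mean over all arrays, was −0.29 on it and 0.49 and 0.53 on LPS/NNK 3 and 6. Without it 7 of the 40 genes were higher and 2 lower against NNK, and 9 higher and 2 lower against LPS. The counts of the 40 genes in both comparisons between treated groups therefore turn on this array. No share of all items stands beside the counts without it, so they are not read as particular to these genes. LPS 1 had the lowest median of its group, at −0.19 against 0.05 and 0.27. Both arrays also had the strongest signal of their groups. The 75th percentile was 510 on LPS/NNK 2, against 192 and 183, and 487 on LPS 1, against 266 and 268. On LPS/NNK 2 66.3% of spots lay above background, against 57.3% and 56.4%. The part of signal strength in these medians and counts was not tested.

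The interaction asked whether LPS and NNK together gave the sum of their separate log2 changes. A negative value means that the joint change was below that sum. Of the 40 genes 2 were higher and 5 lower, where 38.7% of all items were called, 20.1% higher and 18.6% lower. Among genes of like signal 8.97% were higher and 28.3% lower. The median of the 40 genes was −0.26 against −0.53 for genes of like signal and 0.01 for all items. Lower were Ndufb8 at −1.73 ± 0.35 (adjusted p = 0.0037), Cyc1 at −1.51 ± 0.33 (adjusted p = 0.0046), Ndufv1 at −1.09 ± 0.34 (adjusted p = 0.023), Uqcrc1 at −1.09 ± 0.39 (adjusted p = 0.041) and Cox4i1 at −1.07 ± 0.36 (adjusted p = 0.03). These genes were higher with each agent alone, so the joint rise was smaller than the sum. The dimmer probe of Uqcrc1 gave −1.83. Higher were Sdhd at 1.38 ± 0.39 (adjusted p = 0.015) and Uqcrc2 at 1.20 ± 0.37 (adjusted p = 0.023). Their levels were below PBS with each agent alone and near PBS with both. Cycs had 0.79 ± 0.43 (adjusted p = 0.16) and was not called, and its dimmer probes gave 1.74 and 1.55.

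The split of the interaction also turned with the scaling, and each of its 7 genes kept its sign. It was 9 higher and 2 lower after quantile normalization, 10 and 2 after cyclic loess, 8 and 2 with centring on genes of like signal, 1 and 12 with the array median as zero, and 0 and 0 with normexp and the 75th percentile. With normexp and quantile normalization it was 10 and 7. In the same order, 4641 and 4240, 4753 and 4062, 6476 and 2437, 3060 and 5823, 115 and 156, and 4061 and 3692 of all items were called higher and lower. Ndufb8, Sdhd and Cyc1 kept their call whichever array was left out. Ndufv1 and Uqcrc2 kept it in 9 of 12 such fits, Cox4i1 in 7 and Uqcrc1 in 5. Leaving out NNK 2 left 3 called genes, and leaving out LPS 1 gave 12.

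On shared slides the direction could be read between neighbouring arrays. On slide 5, NNK 2 minus PBS 3 had a median of 0.64 over the 40 genes, with 28 positive and 12 negative, against 0.71 for genes of like signal. On slide 8, LPS/NNK 6 minus PBS 1 had 0.51, with 27 positive and 13 negative, against 0.69. For LPS/NNK minus NNK the sign differed between slides, at −0.36 on slide 6, which holds LPS/NNK 2, and 0.42 on slide 7. With the slide as a fixed effect, on slides 5 to 8 only and so without PBS 2 and the LPS arrays, 11 of the 40 genes were higher and 0 lower for NNK against PBS, and 12 higher and 3 lower for LPS/NNK against PBS. No share of all items in that fit stands beside these counts.

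The rest of the chain and its pathway were read from lists whose members were named with earlier results known. Counts of these lists stand beside the 56%, 51.5% and 55.1% of all items called against PBS. Of 13 further subunits of complex I, 6, 6 and 7 were higher in LPS, NNK and LPS/NNK lungs and 0 lower, but 1, 1 and 2 were higher and 2 lower each time after quantile normalization. Ndufa13 had changes of 1.42, 1.47 and 2.0. Of 8 further subunits of complexes III and IV, 2, 2 and 3 were higher and 0 lower, and after quantile normalization 1 was higher each time and 2, 2 and 3 lower. ATP synthase, which uses the proton gradient to make ATP, had 7, 6 and 8 of 16 genes higher and 1, 1 and 0 lower, and 2, 1 and 3 higher with 3, 3 and 6 lower after quantile normalization. Its Atp5d rose by 1.99, 2.10 and 1.88 and its Atp5g2 by 1.57, 1.20 and 2.14. Of 34 assembly factors 7, 7 and 8 were higher and 6, 5 and 5 lower, against 7, 6 and 7 higher and 8, 8 and 9 lower after quantile normalization. Ecsit, a complex I assembly factor, rose by 1.02, 1.30 and 1.82, while Tmem126b, of the same role, changed by −1.19, −1.02 and −1.48 and fell in each.

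Of 13 regulators of mitochondrial biogenesis 3, 4 and 3 were higher and 3, 2 and 1 lower. Polrmt, the mitochondrial RNA polymerase, rose by 1.30, 1.55 and 1.84, and the coactivator gene Pprc1 by 1.23, 1.53 and 1.37. Tfam, which packages and transcribes mitochondrial DNA, changed by −0.61 and −0.74 with LPS and NNK (adjusted p = 0.021 and 0.0094), where it fell, and by −0.41 (adjusted p = 0.10) with both. Ppargc1a, the best known coactivator of these genes, had −0.47, 0.42 and −0.31, and Nrf1 had 0.30, 0.22 and −0.67, none called. Gabpa fell with LPS by a change of −1.18 (adjusted p = 0.019) and was not called with NNK (−0.91) or both (−0.72).

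Neighbouring pathways were read in the same way. Of 19 glycolytic genes 12, 11 and 12 were higher and 1, 0 and 1 lower, and after quantile normalization 9, 6 and 6 were higher and 2, 2 and 1 lower. Slc2a1, a glucose carrier, rose by 1.93, 1.82 and 2.20, Aldoc by 2.0, 1.63 and 2.01, and Gapdh by 1.79, 1.61 and 0.98. The tricarboxylic acid cycle with pyruvate dehydrogenase went both ways, with 5, 5 and 3 of 16 higher and 5 lower each time, and 1, 3 and 1 higher and 7, 8 and 8 lower after quantile normalization. Citrate synthase, Cs, rose by 1.16, 1.22 and 1.62, while Dld changed by −1.27, −1.22 and −1.17 and Sucla2 by −1.33, −1.02 and −0.99 and fell in each. Fatty acid oxidation had 2, 4 and 2 of 15 higher and 2, 3 and 1 lower, and 2, 3 and 2 higher and 4 lower each time after quantile normalization. The proteasome core, another complex of many subunits in fixed proportion, had 1, 1 and 2 of 14 higher and 4, 6 and 4 lower, with Psmb3 at 1.75, 1.64 and 2.16 and Psma3 at −1.17, −1.01 and −1.15.

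Tissue isoforms of complex IV, named whatever their p, were Cox6a2, Cox7a1, Cox8b and Cox4i2. Cox6a2, a heart and skeletal muscle form, rose by 1.42 with NNK and 1.71 with both, and had 0.97 with LPS, not called. Cox7a1 and Cox8b were not called. Cox4i2 was not well above background on any LPS array and was called higher with NNK at 0.80. Ndufa4l2, Ndufa11, Ndufb1 and Esrra were not analysed here.

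Markers of other cells moved with the groups, and their part in the result was not tested. Counts of markers called stand beside the 56%, 51.5% and 55.1% of all items called against PBS. Sums below add each marker's signal relative to the array's 75th percentile, and give the lowest and highest array. The 8 markers of alveolar type 2 cells summed to 620 to 913 in PBS, 1248 to 1617 in LPS, 1477 to 2147 in NNK and 1325 to 2720 in LPS/NNK lungs, with 6, 7 and 5 higher against PBS and 1, 0 and 0 lower. After quantile normalization 1, 3 and 2 of them were higher and 1 lower each time. The sum over the 40 respiratory genes was 511 to 698 in PBS, 789 to 1053 in LPS, 912 to 996 in NNK and 790 to 1552 in LPS/NNK lungs. The 9 macrophage and monocyte markers measured summed to 14.9 to 32.6, 120 to 143, 31.1 to 35.9 and 169 to 214, with 6, 4 and 8 higher against PBS and 0, 2 and 0 lower. The 7 T cell markers summed to 7.19 to 9.77, 33.0 to 54.3, 12.8 to 13.4 and 51.4 to 103. Macrophage and T cell sums were highest in both groups given LPS. The respiratory sum was above PBS in all treated groups under the main scaling, and the split of its genes turned with the scaling.

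Heart muscle was read from 12 markers. They summed to 89.3 to 179 in PBS, 78.7 to 157 in LPS, 97.2 to 251 in NNK and 60.8 to 147 in LPS/NNK lungs, with 1, 3 and 0 higher against PBS and 0, 0 and 4 lower. Against NNK, 5 of the 12 were lower in LPS/NNK lungs, where 9.35% of all items were lower. Myl2, which defines the ventricle, lay above background on no LPS or LPS/NNK array. The 4 club cell markers measured summed to 461 to 476, 572 to 635, 450 to 563 and 207 to 354, and 3 were lower in LPS/NNK lungs against PBS. The 7 endothelial markers summed to 106.9 to 123, 94.9 to 97.7, 121 to 135 and 79.6 to 120. The 4 erythroid markers summed to 231 to 329, 509 to 741, 750 to 927 and 327 to 860. The 5 B cell markers summed to 6.29 to 11.9, 12.1 to 26.9, 7.11 to 11.2 and 17.97 to 23.5, and the 7 ciliated cell markers to 22.1 to 31.2, 36.9 to 45.6, 37.6 to 54.0 and 26.9 to 32.2. The 7 markers of fat summed to 3.97 to 16.3, 9.76 to 19.4, 8.10 to 12.2 and 3.90 to 12.5, with Ucp1, which defines brown fat, above background on no LPS or LPS/NNK array.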

How the data were processed

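Lung RNA from 12 samples, 3 in each of 4 groups, was labelled with Cy3 and read on Agilent arrays of design 14868. Per the file headers, the deposited scanner files give each spot's intensity after background subtraction by Agilent Feature Extraction 10.7.3.1 (10.7 per the submitters' processing notes, which also name Partek). The authors' deposited table holds log2 values, and the values computed here equalled it within 0.001 for 99.5% of probes on all 12 arrays. For this report, log2 of the processed signal minus each array's 75th percentile was used, without the 39 to 99 spots an array that the scanner software marked as outliers. Gene symbols came from RefSeq transcripts. The filter kept probes well above background on all 3 arrays of any group, and a gene's brightest kept probe stood for it, which gave 21853 items.

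Group means were fitted over all arrays at once with lmFit and eBayes of limma 3.58.1, under R 4.3.3 with version 1.17.8 of data.table. The residual degrees of freedom were 8 and the prior ones 5.5, and 6 comparisons were tested, 2-sided. Adjusted p-values are Benjamini-Hochberg over all items, called under 0.05. An exact permutation test of 3 arrays against 3 cannot go below p = 0.1. The fit was tested on simulated data with 200 changed items. Figures were drawn in Python 3.11.15 with matplotlib 3.10.9. Genes of like signal are those between the 10th and 90th percentile of the members' mean level. Full values per array are given for the members with the 3 largest called changes each way per comparison and the smallest p per complex. The genes, the lists and the markers were chosen with earlier results of these data known. The number of arrays limits the precision. Alternatives were other scalings and background corrections, other filters and probe rules, slide or replicate blocks, and leaving out arrays. A gene of a pathway list is counted in its list and is otherwise not reported here.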

Additional observations from a re-analysis of the deposited data

Results flagged for a closer look

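In 7 of the 40 genes the effects of LPS differed with and without NNK by the interaction term of the limma fit (adjusted p under 0.05), where 38.7% of all items did. Among genes of like signal 8.97% were higher and 28.3% lower by this term. The difference was −1.7282 for Ndufb8, a complex I subunit of the outer membrane arm, −1.5121 for Cyc1, cytochrome c1, −1.0896 for Ndufv1, the NADH-binding subunit, −1.0882 for Uqcrc1, a core protein of complex III (−1.83 on its dimmer probe), and −1.073 for Cox4i1 of complex IV. It was 1.3787 for Sdhd, an anchor of complex II, and 1.1983 for Uqcrc2, the other core protein. Each value is the log2 change from NNK to LPS/NNK minus the log2 change from PBS to LPS. PBS 1 and PBS 2, which went against the label female, enter each of these values.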

How the results depend on the processing

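Counts below are of the 40 genes called, of 20, 18 and 23 for LPS, NNK and LPS/NNK against PBS, 1 for LPS/NNK against NNK, 0 for LPS/NNK against LPS and 7 for the interaction, and the cause of each shift was not tested. Except where stated, these counts have no share of all items under the same setting beside them and are not read as particular to these genes. After quantile normalization the median change against PBS was −0.130 (LPS), −0.0372 (NNK) and −0.160 (LPS/NNK). It was −0.224, −0.160 and −0.298 after cyclic loess, −0.149, 0.0872 and 0.00155 with centring on genes of like signal, and −0.0789, −0.00738 and −0.156 after normexp with quantile normalization. With the array median as zero the LPS median was 0.740, and with normexp and the 75th percentile the NNK median was −0.0132. The interaction's median was 0.313 after cyclic loess. Normexp, run on median spot and background signals, with the 75th percentile called 10, 10 and 15 genes against PBS, 0 in LPS/NNK against NNK and 0 in the interaction. It called 352 of all items higher and 25 lower in LPS/NNK against NNK, and 115 and 156 in the interaction. The slide as a fixed effect called 11 for NNK, 15 for LPS/NNK and 0 for LPS/NNK against NNK. Without PBS 1 and PBS 2 the counts were 9, 7 and 13 against PBS, 0 for LPS/NNK against NNK and 2 for the interaction. For LPS/NNK against NNK the count was 0 after quantile normalization, with no filter and with the replicate block, 2 after cyclic loess, with the array median, with centring on genes of like signal and with the mean of a gene's probes, and 3 with normexp and quantile normalization, with a filter on all 12 arrays and with the slide as a random block. LPS/NNK against LPS had 1 call after normexp with quantile normalization. The interaction had 11 calls after quantile normalization, 12 after cyclic loess, 13 with the array median and 17 after normexp with quantile normalization.

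Leaving out 1 array at a time gave 16 to 24 calls and a median of 0.248 to 0.511 for LPS, 12 to 23 and 0.448 to 0.689 for NNK, and 19 to 24 and 0.439 to 0.871 for LPS/NNK against PBS. It gave 0 to 9 calls and a median of −0.0507 to 0.380 for LPS/NNK against NNK, 0 to 11 and 0.0317 to 0.486 for LPS/NNK against LPS, and 3 to 12 and −0.477 to −0.0322 for the interaction. The replicate number as a block gave 20, 17 and 23 calls against PBS and 8 in the interaction. Same-numbered samples did not deviate together throughout (correlations of −0.147 to 0.408 over 9 pairs, 3 above 0.1), so the numbers were not taken as a pairing. The value of 0.408, for LPS 6 and LPS/NNK 6, was the highest of any pair. Pairs of different number and group ran from −0.411 to 0.339.

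Called changes of named genes that turned sign after cyclic loess were Ndufb7 (−0.0835), Uqcrq (−0.0822), Cox5a (−0.0877) and Cox6a1 (−0.0958) for LPS. For NNK they were Ndufb7 (−0.0601), Uqcrq (−0.154) and Cox6a1 (−0.255). For LPS/NNK they were Ndufb8 (−0.239), Ndufs3 (−0.0324), Uqcrq (−0.0159), Cox5a (−0.00765) and Uqcr11 (−0.110). After quantile normalization Cox6a1 had −0.00605 for NNK, and Ndufb8 −0.0285 and Ndufs3 −0.0223 for LPS/NNK. After normexp with quantile normalization these were −0.0192, −0.0271 and −0.00987. Of the values of single genes under all alternatives, 5310 kept their status as called or not called, 601 lost the call and 93 gained it. A further 18 turned sign with a call in the main or the alternative fit. Sign was not compared where neither fit called the gene.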
